A study of Zea mays with 4 samples.

Results

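Genes of the AP2/ERF class of transcription factors that act in the maize spikelet meristem, namely ids1 (indeterminate spikelet1, Zm00001d034629), sid1 (sister of indeterminate spikelet1, Zm00001d019230) and bd1 (branched silkless1, Zm00001d022488), were picked by identifier from the table of FPKM values (fragment counts scaled to transcript length and to library depth), where they are 3 of 39179 genes. The annotation places ids1 on chromosome 1 and both sid1 and bd1 on chromosome 7. Total RNA came from greenhouse-grown Puma hybrid maize at 60 DAS (days after sowing), before pollination. The tissues were the female inflorescence (FI), bagged ahead of silk emergence, and a section of the stem's top internode (TI). Each tissue has 2 libraries, described in the study as biological replicates, and both tissues come from the same hybrid with no other genotype or treatment among the samples used here. How many plants went into a library is not given in the sources used here.

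The spikelet is the unit of the grass inflorescence, and its meristem has to stop making branches and bracts before it forms florets. The AP2 genes ids1 and sid1 help to end the spikelet meristem phase: mutants of ids1 form extra florets in a spikelet, and plants lacking both genes replace florets with further bracts. Transcripts of ids1 are a target of the microRNA miR172, which the gene tasselseed4 encodes. The ERF gene bd1 acts earlier, at the base of the spikelet meristem, and its mutant ear bears branches in place of spikelets and lacks silks. These roles describe young inflorescences, whereas FI was sampled here shortly before pollination.

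FI carried more ids1 and sid1 transcript than TI in all comparisons of single libraries by FPKM, and bd1 was not detected by FPKM in either tissue. In the separately deposited raw counts, FI and TI overlapped for both ids1 and sid1. The TI libraries were far apart: TI replicate 1 held 15.9% of the mean FI level of ids1 and 16.1% of that of sid1, while TI replicate 2 held 62.5% and 57.7%. With this spread the difference between tissues did not pass the test for either gene, and the estimate of its size depended on which TI library was used. The values of TI replicate 1 and TI replicate 2 are therefore kept apart below.

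In FI the FPKM of ids1 was 16.7 (replicate 1) and 20.6 (replicate 2), and in TI it was 2.98 (replicate 1) and 11.7 (replicate 2). Neither TI library reached the lower FI library, and TI replicate 1 was the lowest of all. The mean was 18.7 ± 2.72 (SD, n = 2) in FI and 7.32 ± 6.14 (SD, n = 2) in TI, so that the SD of TI was close to its mean. On the log2(FPKM + 1) scale, which makes changes of weakly expressed genes look smaller, the log2FC of FI against TI was 1.46 (standard error 0.61, unadjusted p = 0.0717, FDR = 0.288 by limma). This did not pass the thresholds of the study, which ask for an FDR under 0.05 and for a log2FC beyond 2 in either direction. The test took in 19531 genes whose FPKM averaged 1 or more, and 7.13% of them had a higher log2FC than ids1.

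For sid1 the FPKM values of FI were 10.1 (replicate 1) and 9.06 (replicate 2), and those of TI were 1.54 (replicate 1) and 5.53 (replicate 2). The libraries fell in the same tissue order as for ids1, with no overlap between FI and TI and with TI replicate 2 between the other TI library and FI. Its mean was 9.60 ± 0.755 (SD, n = 2) in FI and 3.54 ± 2.82 (SD, n = 2) in TI. The log2FC was 1.38 on the log2(FPKM + 1) scale (standard error 0.51, unadjusted p = 0.0505, FDR = 0.277 by limma), and 1562 of the 19531 genes had a higher value. It did not pass the thresholds either.

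These results have to be read against all genes. By limma, 0 of 19531 genes passed both thresholds (0.0%), and 3524 genes (18.0%) had an unadjusted p under 0.05. Each FI library exceeded each TI library in 33.0% of the genes tested, so the lack of overlap in 2 of the 3 genes is what many genes showed. An exact permutation test (two-sided) for 1 gene in 2 against 2 libraries has 0.333 as its smallest p, so only models across all genes were used.

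**Figure D1:**
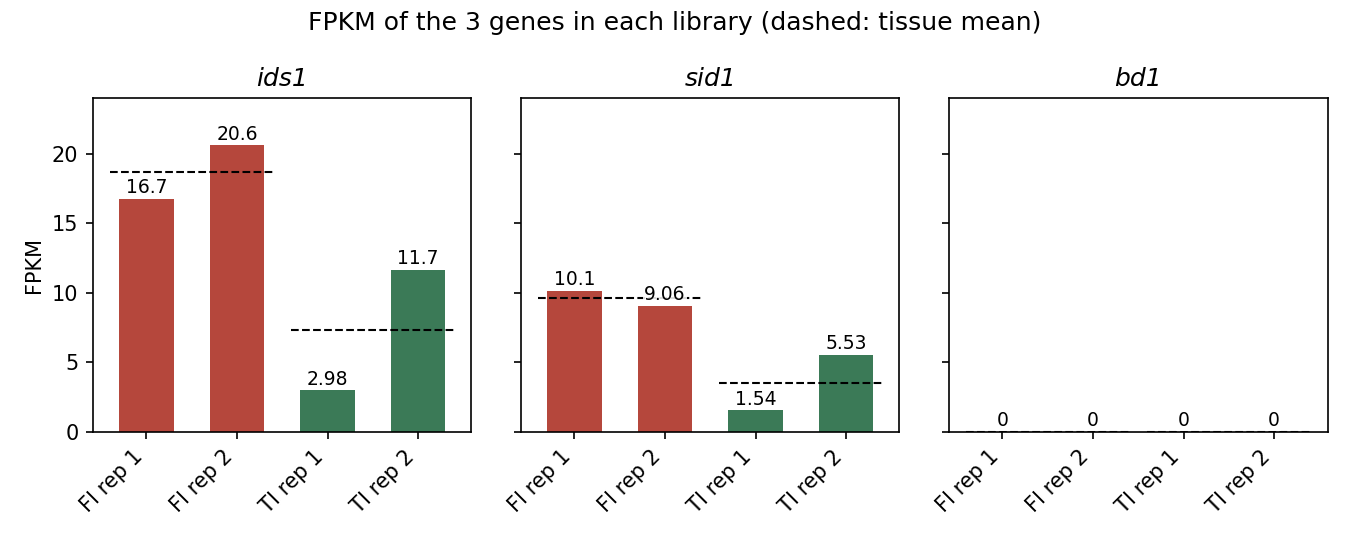
Bars give the FPKM (vertical axis) of ids1, sid1 and bd1 in the 4 libraries, red for FI and green for TI, and dashed lines give the mean of the 2 libraries of a tissue. For ids1 and sid1 both FI bars are above both TI bars and TI replicate 2 stands well above TI replicate 1, while bd1 is at 0 in all 4 libraries.

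bd1 was listed at 0 FPKM in all 4 libraries. It shared this with 13057 of the 39179 genes (33.3%). The count table, which is a separate deposited readout of the same libraries with raw read counts per transcript, holds 1 count of bd1 in FI replicate 2 and 0 counts in the other 3 libraries. A count of 0 allows up to 3 counts, which corresponds to between 1.23 CPM (library-size scaled counts) in FI replicate 1 and 2.06 CPM in TI replicate 2, counting error only. bd1 was thus at or under the limit of detection in both tissues, no fold change is given, and a difference between tissues was not detectable at this depth. Of 26167 gene models with counts, 4912 (18.8%) had 3 counts or fewer in every library.

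FPKM values step by the worth of 1 fragment, which allowed the fragments behind them to be recovered. For ids1 they numbered 170 and 187 for FI against 23 and 73 for TI, and for sid1 95 and 76 against 11 and 32. The low level in TI replicate 1 therefore rests on few fragments. The FPKM of ids1 in TI replicate 2 was 3.92 times that in TI replicate 1 (95% exact binomial interval 2.42 to 6.56), and that of sid1 was 3.59 times as high (1.76 to 7.90). In FI the ratio of replicate 2 to replicate 1 was 1.23 for ids1 (0.994 to 1.52) and 0.895 for sid1 (0.653 to 1.22). The TI libraries thus differed from each other beyond counting error, which was not seen between the FI libraries. These intervals cover counting error of single libraries and say nothing of the tissues.

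Against TI replicate 1, the FI mean was 6.27 times higher for ids1 and 6.23 times higher for sid1. Against TI replicate 2 it was 1.60 and 1.73 times higher. Single FI libraries exceeded TI replicate 2 by 1.44 times (FI replicate 1, interval 1.09 to 1.92) and 1.77 times (FI replicate 2, 1.34 to 2.35) in ids1. For sid1 these ratios were 1.83 (1.21 to 2.82) and 1.64 (1.07 to 2.56). In all 4 of these comparisons the counting interval lay above 1, so by FPKM the order FI above TI replicate 2 was larger than counting error for both genes. The count table, described below, did not keep this order in every library pair.

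Leaving out TI replicate 2 moved both genes past the thresholds. The log2FC was then 2.30 for ids1 (standard error 0.26, FDR = 0.00778 by limma) and 2.06 for sid1 (standard error 0.24, FDR = 0.00826). In that fit 2040 of 19623 genes passed (10.4%), 1534 of them with higher expression in FI (7.82%), and the spread of the lone TI library was assumed to be that of the other tissue. Leaving out TI replicate 1 gave 0.63 (FDR = 0.312 by limma) and 0.70 (FDR = 0.255), and 8 genes passed (0.041%), 0 of them higher in FI. Leaving out either FI library left the log2FC between 1.30 and 1.61 in both genes. On FPKM the size of the difference thus depended mainly on which TI library was used, and its sign was positive in each of these fits.

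**Figure D2:**
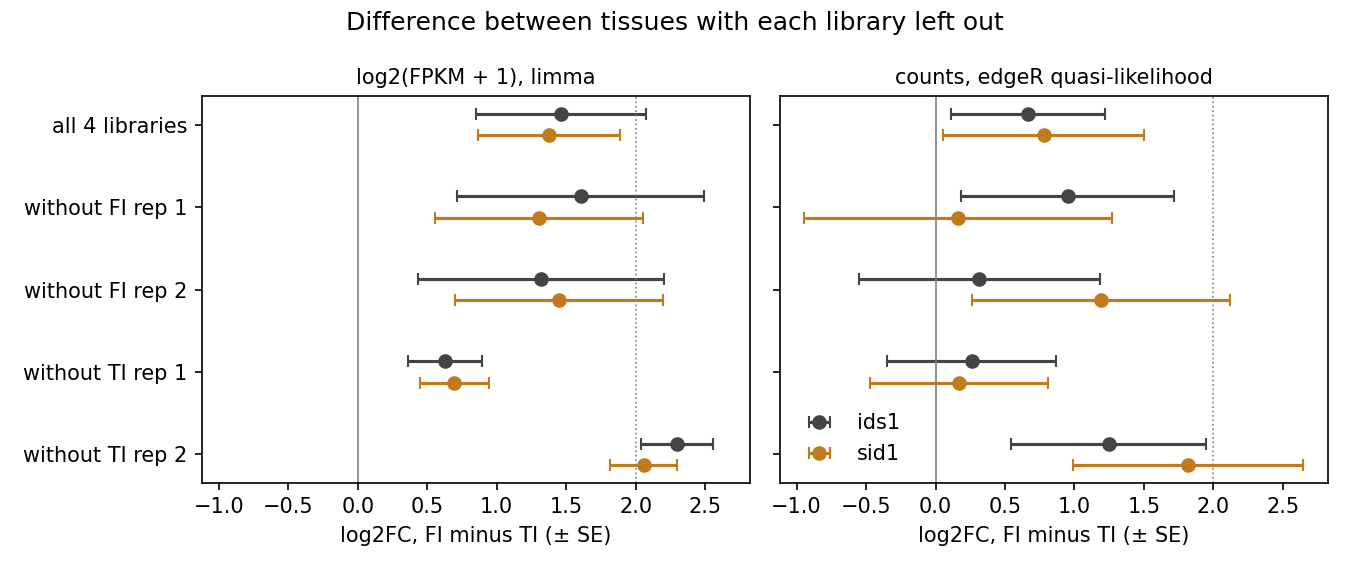
Points give the log2FC of FI against TI (horizontal axis) of ids1 and sid1 with its standard error, for all 4 libraries and with each library left out, on FPKM at the left and on counts at the right. The dotted line marks the log2FC threshold of 2, which both genes exceed only on FPKM without TI replicate 2.

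The count table gave smaller differences on fewer reads. It lists ids1 under the version 3 name GRMZM5G862109, with 20 and 28 counts for FI against 8 and 13 for TI. In CPM these were 8.23 and 13.5 against 4.40 and 8.93, so that FI replicate 1 and TI replicate 2 overlapped. On counts ids1 had a log2FC of 0.67 with a standard error of 0.55 (FDR = 0.547, quasi-likelihood test of edgeR). sid1 (GRMZM2G176175) had 32 and 14 counts for FI against 5 and 13 for TI, or 13.2 and 6.76 CPM against 2.75 and 8.93 CPM. Here FI replicate 2 lay below TI replicate 2, and the log2FC was 0.78 (standard error 0.72, FDR = 0.588 by the same test). Each library moved these values when left out. Without FI replicate 1 the log2FC on counts was 0.95 for ids1 and 0.16 for sid1, and without FI replicate 2 it was 0.31 and 1.19. Without TI replicate 1 it was 0.26 and 0.17, and without TI replicate 2 it was 1.25 and 1.82. On counts the size of the difference therefore depended on the FI libraries as well. On counts FI and TI overlapped in 43.4% of the 15479 genes tested, and 0 genes (0.0%) passed both thresholds while 2443 (15.8%) had an unadjusted p under 0.05. With other settings 590 genes (3.81%, edgeR's exact test), 236 genes (1.52%, DESeq2) and 361 genes (1.38%, no filter on low counts) passed, neither ids1 nor sid1 among them. Without TI replicate 1, 182 genes passed on counts (1.09%), and without TI replicate 2, 2343 genes (13.7%), again without ids1 and sid1. On fragments recovered from FPKM, 610 genes (3.38%) passed by the exact test, where ids1 and sid1 had an FDR of 0.165 and 0.178 and did not.

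Counts were spread over 2 transcript models of each AP2 gene. Most counts of ids1 were assigned to its T03 model, which had 19 and 24 for FI against 6 and 12 for TI, while T02 had 1 and 4 against 2 and 1. The T01 model of sid1 had 22 and 11 counts for FI against 5 and 8 for TI, and T02 had 10 and 3 against 0 and 5. The leading model was thus the same in every library for both genes. In all, the count table holds 69 counts of ids1 and 64 of sid1, against 453 and 214 recovered fragments.

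Between the genes, ids1 had the higher level per length in every library by FPKM, which the raw counts, not scaled to length, did not show. In FI replicate 1 sid1 had 32 counts against 20 of ids1, and in TI replicate 2 both had 13. ids1 had more counts in FI replicate 2 (28 against 14) and in TI replicate 1 (8 against 5). In FI the FPKM of ids1 was 1.65 times that of sid1 in replicate 1 (95% exact binomial interval from the fragments 1.28 to 2.15) and 2.27 times in replicate 2 (1.73 to 3.01). In TI it was 1.93 times in replicate 1 (0.904 to 4.39) and 2.11 times in replicate 2 (1.37 to 3.30). All 4 intervals overlap, and the interval of TI replicate 1 includes 1. The level of ids1 was above that of 76.9% and 82.1% of the detected genes in the FI libraries, of 34.7% in TI replicate 1 and of 66.4% in TI replicate 2. For sid1 these shares were 63.4% and 59.8% in FI, 24.8% in TI replicate 1 and 46.2% in TI replicate 2. Both genes stood far lower in the ranking of TI replicate 1 than in FI, and were still detected there.

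**Figure D3:**
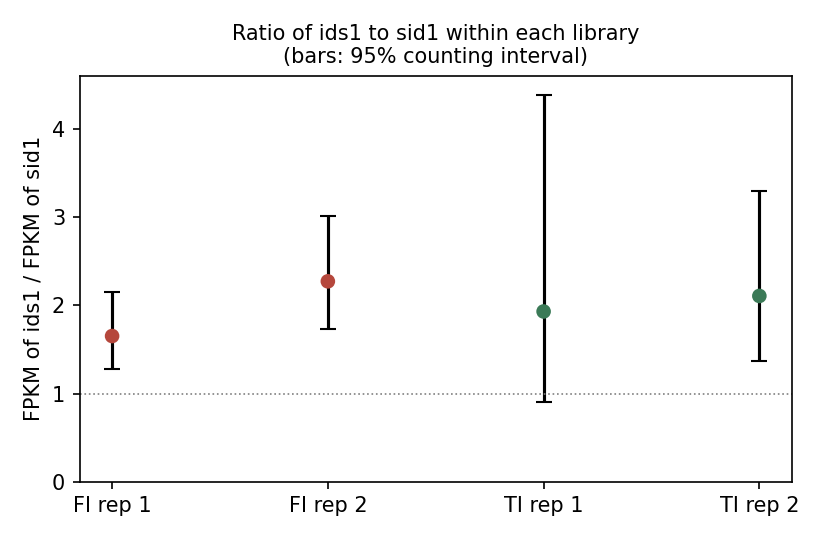
Points give the FPKM of ids1 divided by that of sid1 (vertical axis) within each library, and bars the 95% exact binomial interval from the recovered fragments. The ratio lies between 1.65 and 2.27, and the intervals of the 4 libraries overlap.

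By FPKM, the profiles of ids1 and sid1 over the 4 libraries were close, which the counts did not show. After centring each gene on its own mean of log2(FPKM + 1), they differed by a root mean square of 0.19. Only 2.05% of 19530 other genes lay nearer to ids1 than sid1 did, and 2.81% lay nearer to sid1 than ids1 did. On log2(CPM + 1) the difference was 0.57, where 45.8% of 15478 other genes lay nearer to ids1 and 20.7% nearer to sid1. The FI replicates were in opposite order in these genes both by FPKM and on counts, and stood further apart on counts. These are descriptions over 4 libraries, and genes of the same library share its depth and RNA. Version 4 identifiers have no symbols in the annotation used here, so named neighbours were sought in the counts, among 113 gene models with a symbol. The nearest to ids1 were ct2 (a G protein alpha subunit that controls meristem size), lox1 (a lipoxygenase) and aos1 (an allene oxide synthase of jasmonate synthesis). Those nearest to sid1 were sfp3, sfp4 and bk4. The counts of ct2 were as low as those of ids1, at 16 and 22 for FI against 6 and 13 for TI.

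The labelled tissues were described by marker genes on counts. The marker lists were chosen with earlier results of these data known, so they are no independent check of the labels. Of 24 floral MADS-box names, 14 genes were in the annotation, 13 had counts and 11 could be tested, and FI exceeded TI in every library pair for 11 of 11, beside 30.0% of all genes tested. Their median log2FC was 2.13, beside a median of all genes that rounded to 0.00. Of the 11, 0 passed both thresholds (edgeR's quasi-likelihood test, lowest FDR 0.304, highest 0.481) and 0 passed by the exact test. Only 1 had an unadjusted p under 0.05 by the quasi-likelihood test, beside 15.8% of all genes tested. Their summed level was 1292 and 1088 CPM in FI, 66.0 CPM in TI replicate 1 and 551 CPM in TI replicate 2. In TI replicate 1, 10 of the 13 genes had 3 counts or fewer and 6 were at 0, whereas in TI replicate 2 only 2 had 3 counts or fewer. The MADS-box gene zmm27 had 549 and 344 counts in FI, 0 in TI replicate 1 and 111 in TI replicate 2. Floral genes that TI replicate 1 nearly lacked were thus present in TI replicate 2. The 16 top internode names gave 9 tested genes. Of these, 7 were higher in both TI libraries, beside 26.5% of all genes tested, among them the aquaporin genes nip2b and pip1e. Also among the 7 were pep1 and the C4 enzyme gene ppdk1. Both passed the filter on low counts only through their TI libraries, which fixed their order. The remaining 2 of the 9, the secondary wall genes bk4 and cesa10, were higher in both FI libraries. Of these 9, 0 passed by edgeR's quasi-likelihood test. By that test 7 had an unadjusted p under 0.05, all of them higher in TI, beside 15.8% of all genes tested. By the exact test 5 passed as higher in TI, as did 394 of all 15479 genes tested. Each of the 7 genes higher in TI stood lower in TI replicate 2 than in TI replicate 1. The 11 internode genes with counts summed to 366 and 272 CPM in FI, 961 CPM in TI replicate 1 and 540 CPM in TI replicate 2.

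Like ids1 and sid1, all 11 tested floral markers stood higher in TI replicate 2 than in TI replicate 1. In TI replicate 2 the 11 tested MADS-box genes stood at 35.3% to 68.0% of their FI mean, with a median of 46.8%, and ids1 and sid1 at 62.5% and 57.7% by FPKM. In TI replicate 1 the MADS-box genes stood at 0.0% to 31.3%, with a median of 0.582%, and ids1 and sid1 at 15.9% and 16.1%. On the CPM scale of these markers, ids1 and sid1 stood at 82.2% and 89.7% of FI in TI replicate 2 and at 40.5% and 27.6% in TI replicate 1, from 5 to 13 counts each. On that scale both genes lay above the marker range in TI replicate 2, and ids1 also did in TI replicate 1. As a description, 1583 genes had an FI mean FPKM of at least 5 and at least 4 times their FPKM in TI replicate 1. In these the level in TI replicate 2 had a median of 51.6% of the FI mean (quartiles 41.9% and 61.6%). Because a low TI replicate 1 was part of the choice, TI replicate 2 tends to stand above it in these genes by selection. Both AP2 genes belong to this group, within which 76.5% of the genes had a lower share than ids1 and 66.9% a lower share than sid1. The part of these libraries' makeup in the values of ids1 and sid1 was not tested. In bulk tissue, fewer cells of a type and less RNA per cell cannot be told apart.

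**Figure D4:**
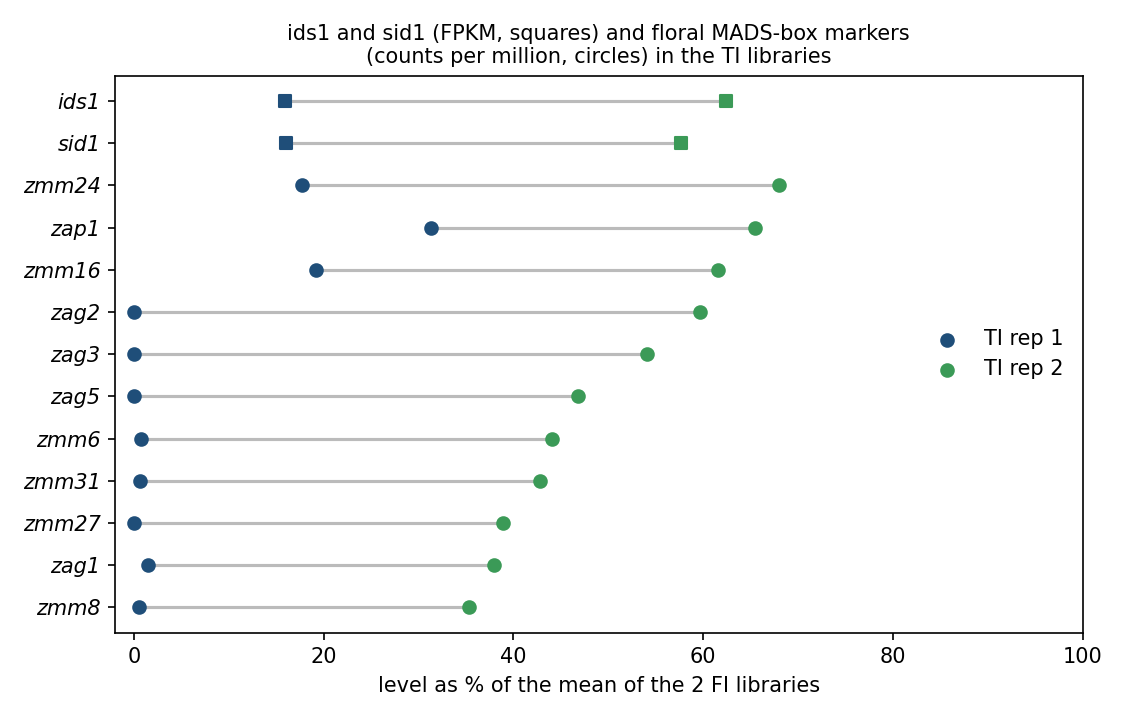
Points give the level in TI replicate 1 (blue) and TI replicate 2 (green) as a percentage of the mean of both FI libraries (horizontal axis), by FPKM for ids1 and sid1 (squares) and by CPM for 11 floral MADS-box genes (circles). All genes shown stand higher in TI replicate 2 than in TI replicate 1, with ids1 at 15.9% and 62.5% and sid1 at 16.1% and 57.7%. By CPM, the scale of the circles, ids1 stands at 40.5% and 82.2% and sid1 at 27.6% and 89.7%.

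The pathway around these genes was covered in part. Of the 11 names listed for miR172 and its AP2 targets, 7 were in the annotation and 3 had counts. The microRNA itself was not analysed here. Beside ids1 and sid1, counts were present for gl15 (glossy15), the AP2 gene that keeps leaves juvenile and a target of miR172, with 1 count in each FI library and 0 in both TI libraries, at the limit of detection. Neither ids1 nor sid1, the genes of this list that could be tested, passed (0 of 2).

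Among partners in branch and spikelet meristems, 8 of 10 names were in the annotation, 4 had counts and 3 could be tested. In ub3 and rel2, FI exceeded TI in every library pair, beside 30.0% of all genes tested. The gene ub2 had the same order, but it passed the filter on low counts only through its FI libraries, which fixed that order. Of the 3, 0 passed (edgeR's quasi-likelihood test, lowest FDR 0.336), and 0 had an unadjusted p under 0.05, beside 15.8% of all genes tested. The SBP-box genes ub2 and ub3 limit the number of meristems that the inflorescence forms. ub2 had 15 and 11 counts in FI, 0 in TI replicate 1 and 3 in TI replicate 2 (FDR = 0.336). ub3 had 45 and 38 counts in FI, 2 in TI replicate 1 and 22 in TI replicate 2 (log2FC 1.20, standard error 0.94, FDR = 0.524). In ub3, as in ids1 and sid1, TI replicate 2 stood nearer to FI than TI replicate 1 did. The corepressor gene rel2 was abundant throughout, with 1198 and 1299 CPM in FI and 935 and 1140 CPM in TI (log2FC 0.22, standard error 0.19, FDR = 0.574).

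Of 6 names for spikelet sex determination and the floral meristem, 3 were in the annotation and 2 could be tested, of which 0 passed. The homeobox gene gt1, which represses axillary buds and carpels of the tassel, had 105 and 86 counts in FI, 0 in TI replicate 1 and 24 in TI replicate 2 (log2FC 2.39, standard error 1.19, FDR = 0.371). The lipoxygenase gene ts1, which acts in jasmonate synthesis, had 12 and 11 counts for FI against 13 and 4 for TI, with overlapping tissues (log2FC −0.04, standard error 0.65, FDR = 0.979).

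The wider AP2/ERF family was represented by 35 genes that the annotation names EREB, of which 29 had counts and 12, sid1 included, could be tested. In 9 of the 12 the log2FC was above 0, beside 7724 of all 15479 genes tested. The median log2FC was 0.54, beside −0.0015 over all genes tested. FI exceeded TI in every library pair for 5 of the 12 and lay below it for 2, not far from the shares of all genes tested, 30.0% and 26.5%. Among these 5, EREB202 passed the filter on low counts only through its FI libraries, which fixed its order. None passed both thresholds (0 of 12 by the quasi-likelihood test, lowest FDR 0.288, and 0 by the exact test). An unadjusted p under 0.05 by the quasi-likelihood test was seen in 2 of the 12, EREB46 and EREB109, close to the 15.8% of all genes tested. EREB46 had 62 and 58 counts for FI against 11 and 22 for TI (log2FC 1.31, standard error 0.48, FDR = 0.306). The most abundant members by CPM were EREB109, with 178 and 138 for FI against 89.1 and 99.6 for TI, and EREB160, with 100.4 and 134 against 176 and 142. The order of the tissues was thus opposite in the most abundant members, though neither passed.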

How the data were processed

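The authors cleaned paired-end reads with Trimmomatic (FastQC 0.11.2 for quality) and aligned them with TopHat2 2.0.13, per the labels. They deposited raw counts per transcript under version 3 names, the counting tool being not given in the sources used here, and FPKM values per gene made with CLC Genomics Workbench on B73 RefGen_v4. Their log2 fold changes, p-values and FDR were not used. In the count table the columns named floral stem were taken as FI, since the series has only these tissues. Library totals in the count table were 2431447 and 2072230 for FI against 1817889 and 1455729 for TI.

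Log2(FPKM + 1) was fitted with limma 3.58.1 on genes averaging 1 FPKM or more. Counts were summed per gene, filtered by filterByExpr (at least 10 counts, and 15 in total), scaled by TMM and tested with edgeR 4.0.16 (R 4.3.3, Python 3.11.15), with DESeq2 1.42.0 as an alternative. P-values were adjusted by Benjamini-Hochberg over all genes tested. The study calls the replicates biological without naming the plants, so p-values measure only the spread between these libraries. Fragments were recovered for 24149 of 24149 genes above 0 in at least 2 libraries, with a deviation from whole numbers of at most 1e-06 plus 1e-08 per fragment. In a test on simulated data, 92.5% of 5763 genes returned their exact fragments and the others a number smaller by a factor shared between libraries, which leaves ratios as they are and widens counting intervals. The fits were tested on simulated data too.

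Symbols were matched to version 3 names through RefSeq (Zm-B73-REFERENCE-NAM-5.0), where 16576 of 26167 gene models have a row. Version 4 names have none, so lists and named neighbours were described on counts, not on FPKM as first laid out. Named genes were the 3 members, the list genes with counts, the most abundant EREB and marker genes, and the 3 nearest profiles. The members and lists were chosen with earlier results of these data known. No sequence is shown.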

Additional observations from a re-analysis of the deposited data

How the results depend on the processing

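The log2FC of ids1 and sid1 stayed positive in every alternative that gave a value. On FPKM it lay between 0.63 and 2.58 for ids1 and between 0.70 and 2.57 for sid1 with each library left out, the highest values being those on recovered fragments without TI replicate 2 (a setting chosen after seeing the data, FDR = 0.000259 and 0.00103 by edgeR's quasi-likelihood test). Only without TI replicate 2 did either gene pass, in 2 of 16 alternatives each (2.30 and 2.06 by limma), and on counts neither passed in any of 11 alternatives. Quantile normalization moved the median log2FC of all genes from 0.06 to −0.05 and gave 1.35 for ids1 and 1.17 for sid1. bd1 gave no value to compare. Genes passing both thresholds on FPKM numbered 610 by the exact test on recovered fragments and from 0 to 2040 with each library left out. On counts they numbered 590 by the exact test, 236 by DESeq2, 361 without a filter on low counts and from 0 to 2343 with each library left out. The cause was not tested.

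The replicate number as a block left ids1 at 1.46 and sid1 at 1.38 on FPKM (FDR = 0.250 for both by limma), and at 0.68 and 0.80 on counts, with 0 genes passing. The labels do not say what the number marks, and deviations of same-numbered libraries correlated by 0.17 on FPKM and 0.16 on counts across genes.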
